A study of Homo sapiens with 6 samples.

Results

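Histone acetyltransferases place acetyl groups on lysines of histone tails, and bromodomain proteins bind acetylated lysines and bring the transcription machinery to them. Some proteins of these kinds act as coactivators of p53, and several of the acetyltransferases also acetylate p53 itself. The RNA of 9 genes of histone acetyltransferases and bromodomain proteins was followed here in HCT116 cells. Of these, 5 encode acetyltransferases: EP300 and CREBBP, the closely related p300 and CBP; KAT2A and KAT2B, also known as GCN5 and PCAF, the alternative catalytic subunits of the SAGA and ATAC complexes; and KAT5, or TIP60, the catalytic subunit of the NuA4 complex. The other 4 encode bromodomain proteins: BRD2 and BRD3, members of the BET family, and BRD7 and BRD9, subunits of different forms of the SWI/SNF chromatin remodeller (PBAF and the non-canonical BAF form, respectively). The genes were chosen by symbol, each symbol matched 1 row of the deposited counts, and the 9 rows belong to a table of 57905 genes. All 9 passed the low-count filter, as did 16565 genes in all.

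HCT116 is a human colorectal carcinoma line with wild-type p53. Cells received the vehicle DMSO (Nut 0h) or 10 µM Nutlin-3a, which blocks the binding of p53 to its inhibitor MDM2, for 1 h (Nut 1h) or 10 h (Nut 10h), and each condition had 2 biological replicates, 6 RNA-seq libraries in all. Because the vehicle-treated cells stand for the whole time course, time in culture and treatment cannot be told apart. All libraries come from 1 cell line. Counts assigned to genes summed to between 26068076 and 35473485 per library, with the lowest total in Nut 1h replicate 2. Mitochondrial genes took between 4.99% and 8.44% of the counts, highest in the Nut 1h libraries. Of 8 epithelial markers 7 passed the low-count filter, while VIL1 had at most 10 counts; of the fibroblast collagens COL1A1 had 621 to 1484 counts, COL1A2 at most 25 and COL3A1 at most 2, and the defining markers of blood and endothelial cells had at most 23. The p53 target MDM2 rose 4.56-fold at Nut 1h (adjusted p = 3.55e-08; 2.19 on the log2 scale and 1.49 with the GC-content offset described next, adjusted p = 4.81e-10) and 13.4-fold at Nut 10h (adjusted p = 4.51e-10). CDKN1A, the p53 target that encodes the cell cycle inhibitor p21, rose 14.3-fold at Nut 10h (adjusted p = 1.03e-10) and at Nut 1h was not called as fitted (log2 fold change 0.05, adjusted p = 0.704) but called higher with the offset (0.71, adjusted p = 2.62e-06). Another p53 target, BAX, which promotes apoptosis, rose 2.44-fold at Nut 10h (adjusted p = 5.33e-07) but was called lower at Nut 1h as fitted (-0.54, adjusted p = 0.000502; 0.19 with the offset, adjusted p = 0.0515). BAX is named here after its values were seen.

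Fold changes were fitted with edgeR (quasi-likelihood test, all 6 libraries), and a gene was called when its adjusted p over the 16565 tested genes was at most 0.05. Normalized counts are counts scaled to a common effective library size. At Nut 1h the fold changes of all genes followed their GC content (Pearson's r = -0.69 across 16137 genes, which share the same libraries), whereas at Nut 10h they did not to any comparable degree (r = -0.03). The 9 genes span GC contents from 41.2% (KAT2B) to 59.9% (KAT2A). The Nut 1h fold changes of the 9 genes are therefore given both as fitted and with a GC-content offset, a smooth curve fitted to each library that takes out the trend on GC content. How far that trend is technical was not tested, and the offset would also take out a biological change that runs with GC content.

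Promoter sequences are shown for the 4 genes called lower than Nut 0h as fitted, without the offset, at 1 or both of the time points. These are KAT2A, KAT5, BRD3 and BRD7. All 9 genes matched RefSeq promoter windows (250 bases before to 50 bases after an annotated start, GRCh38.p14), with 14 windows in all because BRD2 has 4 and CREBBP and BRD9 have 2 each. Each window was searched on both strands for the GC box spelled GGGCGG, for CCAAT as in the CCAAT box, for the E-box spelled CACGTG, for the ETS-type motif spelled CCGGAAG, for the TATA motif spelled TATAAA and for the p53 half-site, and matches may overlap. Capitals mark the matches, and a GC box on the other strand reads CCGCCC.
KAT2A, chr17:42121318-42121617, minus strand: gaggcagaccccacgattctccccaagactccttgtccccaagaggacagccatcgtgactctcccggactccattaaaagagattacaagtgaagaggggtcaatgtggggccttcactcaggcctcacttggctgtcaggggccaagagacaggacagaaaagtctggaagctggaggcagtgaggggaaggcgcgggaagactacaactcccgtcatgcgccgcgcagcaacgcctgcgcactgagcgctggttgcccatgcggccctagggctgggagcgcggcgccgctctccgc
KAT5, chr11:65712002-65712301, plus strand: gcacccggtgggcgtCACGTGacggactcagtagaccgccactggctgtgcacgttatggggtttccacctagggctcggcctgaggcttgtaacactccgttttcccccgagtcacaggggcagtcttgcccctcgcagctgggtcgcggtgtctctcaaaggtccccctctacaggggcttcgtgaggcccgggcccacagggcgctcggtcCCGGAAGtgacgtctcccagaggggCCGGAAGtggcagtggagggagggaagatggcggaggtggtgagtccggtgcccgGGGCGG
BRD3, chr9:134067977-134068276, minus strand: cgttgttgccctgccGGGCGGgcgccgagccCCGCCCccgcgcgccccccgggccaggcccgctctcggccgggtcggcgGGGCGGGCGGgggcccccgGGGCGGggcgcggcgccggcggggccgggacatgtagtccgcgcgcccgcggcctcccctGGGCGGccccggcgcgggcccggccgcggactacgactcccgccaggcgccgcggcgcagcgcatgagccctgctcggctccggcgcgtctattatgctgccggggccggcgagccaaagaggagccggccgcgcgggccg
BRD7, chr16:50368939-50369238, minus strand: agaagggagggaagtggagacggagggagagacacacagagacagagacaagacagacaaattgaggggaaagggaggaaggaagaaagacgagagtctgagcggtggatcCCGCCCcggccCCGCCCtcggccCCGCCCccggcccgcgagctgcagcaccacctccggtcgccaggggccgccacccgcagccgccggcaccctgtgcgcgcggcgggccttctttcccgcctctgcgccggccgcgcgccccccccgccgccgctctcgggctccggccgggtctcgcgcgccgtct

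The KAT2A window held none of the motifs. The KAT5 window held 1 CACGTG, 2 CCGGAAG and 1 GGGCGG, the BRD7 window held 3 GC boxes and the BRD3 window held 6. Across 35116 windows of this length in the table, GGGCGG was found in 45.0%, CCAAT in 34.6%, CACGTG in 7.26%, CCGGAAG in 10.3%, TATAAA in 11.5% and the p53 half-site in 6.63%. Among the 14 windows of the 9 genes, a p53 half-site was found in 2, both of BRD2, and no window held TATAAA or CCAAT. The GC contents of these 4 windows were 62% (KAT2A), 67.3% (KAT5), 73.3% (BRD7) and 85.0% (BRD3), beside a median of 58.7% over all windows. A match is a run of letters and not a measured binding site.

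The genes differed widely in level. Per length of the longest annotated transcript, on a TPM scale computed from the counts, BRD2 was highest at Nut 0h with 179 and 180 in the replicates and KAT2B lowest with 2.45 and 3.10. KAT2A was next to BRD2 with 97.8 and 94.7, followed by KAT5 with 57.4 and 57.8 and BRD7 with 48.5 and 46.7. CREBBP (30.6 and 31.2), EP300 (28.3 and 33.3) and BRD9 (28.6 and 28.3) lay close together, and the replicates of EP300 spanned those of both others, so the order of EP300 against these neighbours could not be told from the spread. BRD3 followed with 24.4 and 23.4. BRD2, KAT2A, BRD3 and KAT2B kept ranks 1, 2, 8 and 9 in all 3 conditions. At Nut 1h EP300 (42.7 and 38.7) overlapped KAT5 (40.1 and 38.1), which had been above it at Nut 0h. With merged exons in place of the longest transcript, BRD3 and BRD9 changed places in all 3 conditions, as did EP300 and CREBBP at Nut 0h and EP300 and BRD7 at Nut 10h.

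**Figure D1:**
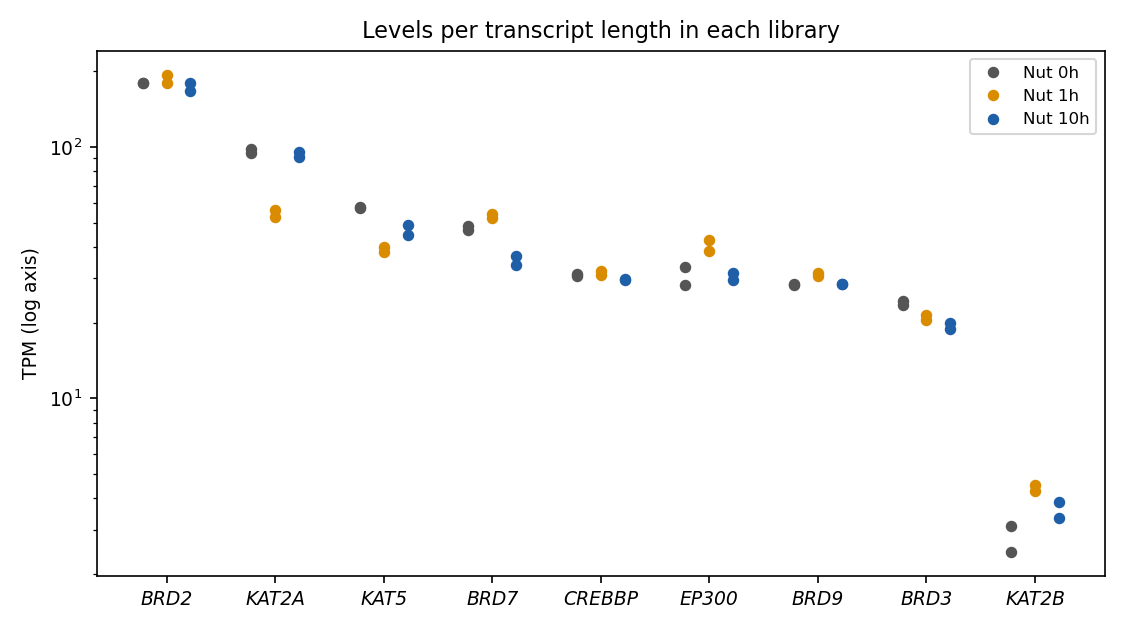
TPM by longest-transcript length (log axis) for each gene, ordered by the mean at Nut 0h, with 1 point per library and colours for Nut 0h, Nut 1h and Nut 10h. BRD2 lies near 180 and KAT2B between 2.45 and 4.53, and KAT2A is the gene whose Nut 1h points lie furthest below its Nut 0h points.

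After 1 h of Nutlin-3a, 5 of the 9 genes were called: EP300 and KAT2B were higher, and KAT2A, KAT5 and BRD3 were lower. In this comparison 66.9% of all tested genes were called, 34.5% higher and 32.3% lower, so 5 of 9 (55.6%) is no more than the background. Without Nut 0h replicate 1, or without Nut 1h replicate 1, 3 of the 9 were called. The groups did not overlap for 7 of the 9 genes, beside 84.8% of all tested genes. The median log2 fold change of the 9 genes was -0.05 and that of all tested genes 0.05. In bulk RNA, a change in the RNA of each cell and a change in the make-up of the cells cannot be told apart. The summed CPM of the epithelial markers were lower at Nut 1h (3672 to 3876) than at Nut 0h (5220 to 5904) and Nut 10h (6726 to 7744). KRT8, KRT18, KRT19, CLDN4 and CDX2 were called lower at Nut 1h, whereas EPCAM (log2 fold change 0.46, adjusted p = 0.000855) and CDH1 (0.51, adjusted p = 0.000276) were called higher. The median of the 7 tested markers was -0.71 as fitted and 0.01 with the GC-content offset, under which 1 was called higher and 1 lower. The summed CPM of the fibroblast, blood and endothelial markers, most of it COL1A1, were also lower at Nut 1h (24.4 to 25.9) than at Nut 0h (39.6 to 42.7) and Nut 10h (37.03 to 38.51). COL1A1 was called lower at Nut 1h as fitted (-0.78, adjusted p = 1.12e-05) and not with the offset (0.18, adjusted p = 0.103). The part of these markers in the results was not tested.

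**Figure D2:**
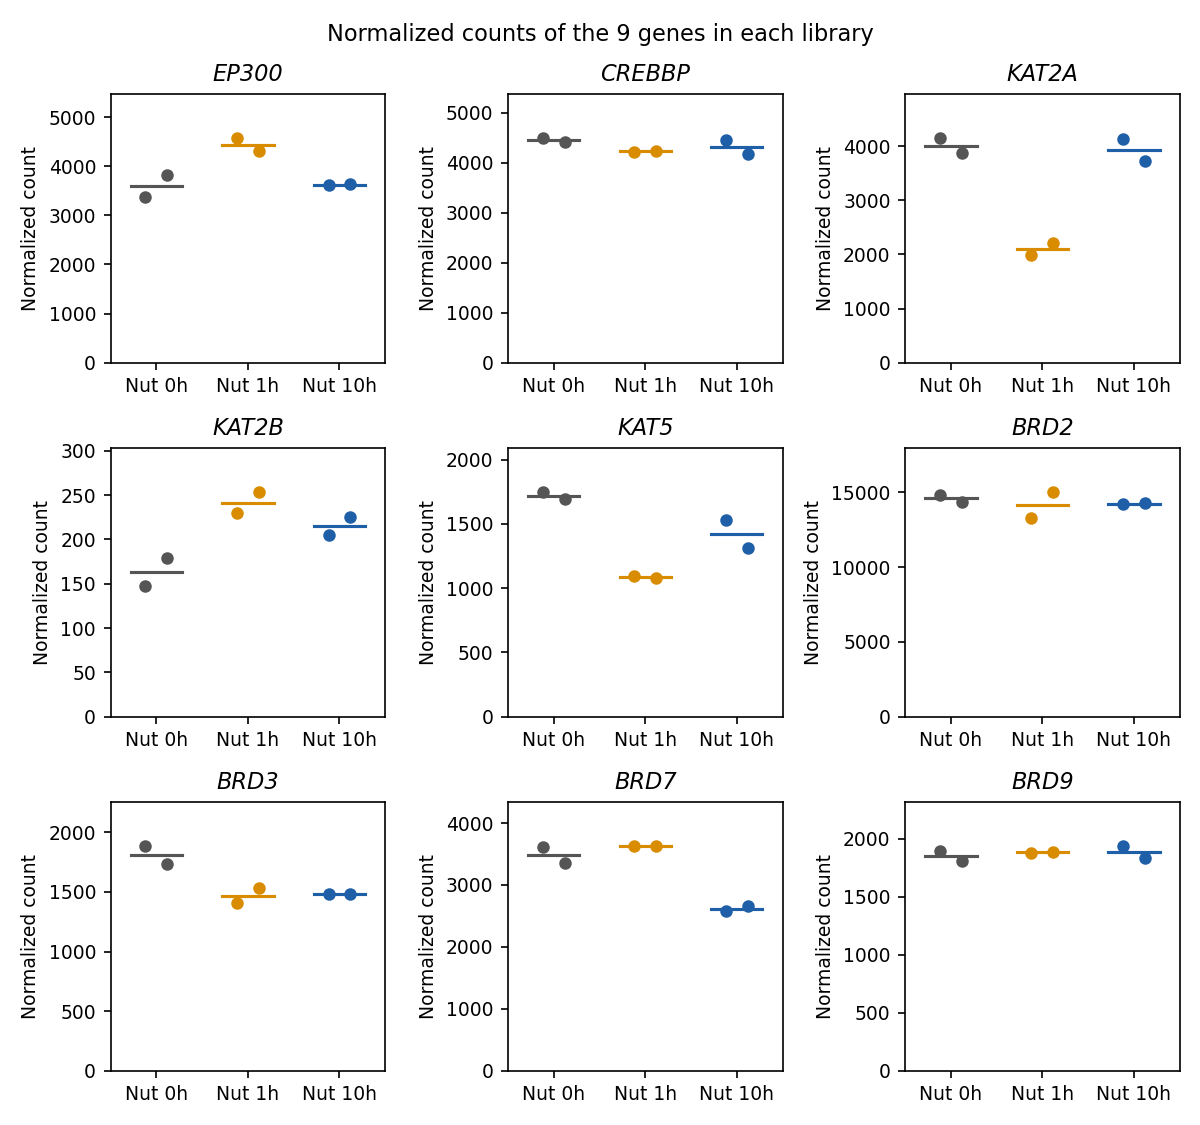
Normalized counts (vertical axes, from 0, each panel on its own scale) of the 9 genes in Nut 0h, Nut 1h and Nut 10h, with 1 point per library and a line at the mean of the 2 replicates. KAT2A and KAT5 are lowest in the Nut 1h libraries, EP300 is highest there, and BRD7 is lowest in the Nut 10h libraries.

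EP300 encodes p300, a large acetyltransferase that acetylates histones at enhancers as well as the C-terminal part of p53. Its gene lies on chromosome 22 from 41488596 to 41576081 (GRCh37, plus strand). The Nut 0h replicates had 3382 and 3832 normalized counts, the Nut 1h replicates 4568 and 4305, and the Nut 10h replicates 3612 and 3644. The Nut 1h libraries thus lay above all others. EP300 rose 1.23-fold at Nut 1h (log2 fold change 0.30 ± 0.09 SE, adjusted p = 0.0123), and with the GC-content offset the change was 0.29 (adjusted p = 0.00320). The call was lost without Nut 0h replicate 1 (0.20, adjusted p = 0.190), without Nut 1h replicate 1 (adjusted p = 0.124) and without Nut 1h replicate 2 (adjusted p = 0.0503), and a transcript-length offset in place of the GC-content offset gave -0.02 (adjusted p = 0.856). At Nut 10h EP300 differed from Nut 0h by a log2 fold change of 0.01 (95% interval -0.19 to 0.21).

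CREBBP encodes CBP, which shares the catalytic and bromodomain architecture of p300. The CREBBP locus is on chromosome 16, 3775055 to 3930714 (minus strand). For CREBBP the vehicle libraries held 4491 and 4415 normalized counts, those of 1 h of treatment 4217 and 4244, and those of 10 h 4459 and 4180. The Nut 1h libraries were below those of Nut 0h by a small margin, and those of Nut 10h overlapped both. CREBBP was not called at Nut 1h (log2 fold change -0.07, 95% interval -0.26 to 0.12, adjusted p = 0.475) or Nut 10h (-0.04, 95% interval -0.23 to 0.15). Under the GC-content offset the Nut 1h value changed sign and was called higher (0.41 ± 0.07 SE, adjusted p = 7.98e-05), and with the transcript-length offset it was called lower (-0.48, adjusted p = 0.000767).

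Within each library, the ratio of EP300 to CREBBP counts, which needs no scaling between libraries, was 0.753 and 0.868 in the vehicle replicates, 1.08 and 1.01 in those of Nut 1h and 0.810 and 0.872 in those of Nut 10h. The ratio was therefore higher in the Nut 1h libraries than in any other, by 0.37 ± 0.11 (SE) on the log2 scale against Nut 0h. With the GC-content offset this change was -0.12. A comparison of 2 libraries with 2 cannot give a two-sided exact p below 0.333, so the ratios are given as a description.

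KAT2A encodes GCN5, the acetyltransferase of SAGA and ATAC that modifies histone H3 at promoters. It is encoded on chromosome 17 between 40265129 and 40273385 (minus strand) and has the highest GC content of the 9 genes, with the promoter window printed above. In normalized counts, KAT2A stood at 4147 and 3872 in the vehicle cells, 1999 and 2218 in the Nut 1h cells and 4129 and 3732 in the Nut 10h cells. The Nut 1h libraries lay far below the others, and the Nut 10h and Nut 0h libraries overlapped. KAT2A fell to 0.53 of its Nut 0h level at Nut 1h (log2 fold change -0.93 ± 0.10 SE, adjusted p = 2.19e-06), the largest change of the 9 genes in either comparison with Nut 0h. This call held without any single library (-1.01 to -0.85), but with the GC-content offset the value was -0.11 (95% interval -0.26 to 0.04, adjusted p = 0.211). At Nut 10h KAT2A differed from Nut 0h by -0.03 (95% interval -0.24 to 0.18).

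KAT2B encodes PCAF, the paralog of GCN5 and the acetyltransferase first known as a p300-associated factor. KAT2B spans 20081938 to 20195896 of chromosome 3 (plus strand) and has the lowest GC content of the 9 genes. KAT2B rested on 152 to 242 counts per library, the fewest of the 9 genes, and its standard error was the largest. The Nut 0h replicates had 147 and 179 normalized counts, the Nut 1h replicates 230 and 253, and the Nut 10h replicates 205 and 225. All 4 treated libraries lay above those of Nut 0h. KAT2B rose 1.48-fold at Nut 1h (log2 fold change 0.56 ± 0.15 SE, adjusted p = 0.00442), whereas with the GC-content offset the value was -0.05 (95% interval -0.34 to 0.23, adjusted p = 0.772) and with DESeq2 it missed the threshold (0.52, adjusted p = 0.0521). At Nut 10h the log2 fold change was 0.40 ± 0.15 (SE, adjusted p = 0.0601), and with the GC-content offset 0.37 (adjusted p = 0.0357). Dropping single libraries moved the Nut 10h value between 0.26 (Nut 0h replicate 1 dropped) and 0.55 (Nut 0h replicate 2 dropped).

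In counts, KAT2A exceeded KAT2B 28.2-fold and 21.6-fold in the Nut 0h libraries, 8.70-fold and 8.77-fold at Nut 1h and 20.2-fold and 16.6-fold at Nut 10h. The fall of this ratio at Nut 1h was -1.50 ± 0.19 (SE) on the log2 scale, the largest among the 4 pairs compared. The genes of this pair have the most and the least GC of the 9, and with the GC-content offset the change was -0.06.

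KAT5 encodes TIP60, which acetylates histones H4 and H2A and a lysine in the DNA binding domain of p53. Its gene lies on chromosome 11 from 65479467 to 65487075 (plus strand). For KAT5 the vehicle libraries held 1746 and 1696 normalized counts, those of 1 h of treatment 1095 and 1081, and those of 10 h 1528 and 1312. The Nut 10h libraries thus lay between those of Nut 0h and Nut 1h without overlap. KAT5 fell to 0.63 of its Nut 0h level at Nut 1h (log2 fold change -0.66 ± 0.10 SE, adjusted p = 5.54e-05), and with the GC-content offset the value was -0.01 (95% interval -0.17 to 0.15, adjusted p = 0.924). At Nut 10h the log2 fold change was -0.28 ± 0.10 (SE), just short of the threshold (adjusted p = 0.0513), and with the GC-content offset it was called (-0.31, adjusted p = 0.00278). With 1 library left out the Nut 10h value ranged from -0.39 to -0.16. It was -0.39 without Nut 10h replicate 1, the Nut 10h library with the higher KAT5 level.

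Of the merged exon bases of KAT5, 38.6% overlap exons of RNASEH2C on the opposite strand. RNASEH2C, a subunit of RNase H2, had 383 to 831 counts per library against 859 to 1807 of KAT5, and it fell at Nut 1h (-0.77, adjusted p = 7.96e-05; -0.24 with the GC-content offset, adjusted p = 0.0576) and Nut 10h (-0.76, adjusted p = 0.000294). Whether the counting used the strand is not given in the sources used here, so reads in these bases cannot be assigned with certainty, and their part in the KAT5 values was not tested.

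BRD2 encodes a BET protein that binds acetylated histone H4 on transcribed genes. The BRD2 locus is on chromosome 6, 32936371 to 32949282 (plus strand). In normalized counts, BRD2 stood at 14820 and 14354 in the vehicle cells, 13285 and 14992 in the Nut 1h cells and 14191 and 14290 in the Nut 10h cells. The Nut 1h libraries spanned all the others. BRD2 was not called at Nut 1h (log2 fold change -0.05, 95% interval -0.25 to 0.16) or Nut 10h (-0.03, 95% interval -0.24 to 0.17), and with the GC-content offset the Nut 1h value was 0.18 (adjusted p = 0.0667).

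BRD3 encodes the BET paralog of BRD2, which also binds acetylated transcription factors. It is encoded on chromosome 9 between 136895427 and 136933657 (minus strand). The Nut 0h replicates had 1883 and 1735 normalized counts, the Nut 1h replicates 1405 and 1534, and the Nut 10h replicates 1484 and 1482. All 4 treated libraries lay below those of Nut 0h. BRD3 fell to 0.81 at Nut 1h (log2 fold change -0.30 ± 0.10 SE, adjusted p = 0.0129) and to 0.82 at Nut 10h (-0.29 ± 0.10 SE, adjusted p = 0.0366). Under the GC-content offset the Nut 1h value was -0.11 (adjusted p = 0.271) and the Nut 10h value -0.34 (adjusted p = 0.00175).

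The BRD3 calls rested on few libraries. At Nut 1h the call was lost without Nut 0h replicate 1 (-0.25, adjusted p = 0.113) and without Nut 1h replicate 1 (-0.23, adjusted p = 0.169). At Nut 10h it was lost without any 1 of the libraries other than Nut 0h replicate 2, with the highest adjusted p, 0.255, without Nut 0h replicate 1 (-0.23). The others were adjusted p = 0.0799 and 0.0802 without Nut 1h replicates 1 and 2 and 0.0774 and 0.111 without Nut 10h replicates 1 and 2. BRD3OS, a gene on the opposite strand that shares 18.6% of the BRD3 exon bases, fell at Nut 1h (-0.83, adjusted p = 1.69e-05; -0.59 with the GC-content offset) and was not called at Nut 10h (-0.12, adjusted p = 0.424).

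The ratio of BRD2 to BRD3 counts was 7.87 and 8.27 in the vehicle replicates, 9.46 and 9.77 in those of Nut 1h and 9.56 and 9.64 in those of Nut 10h. It was higher in all 4 treated libraries, by 0.25 ± 0.04 (SE) on the log2 scale at Nut 1h and 0.25 ± 0.04 (SE) at Nut 10h, and with the GC-content offset by 0.29 and 0.26. The GC contents of these paralogs are close, 52.6% for BRD2 and 52.3% for BRD3.

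BRD7 encodes a PBAF subunit that is known as a cofactor of p53. BRD7 spans 50347398 to 50402899 of chromosome 16 (minus strand). For BRD7 the vehicle libraries held 3612 and 3357 normalized counts, those of 1 h of treatment 3624 and 3623, and those of 10 h 2576 and 2660. The Nut 10h libraries lay below all 4 others, which lay close together. BRD7 fell to 0.75 of its Nut 0h level at Nut 10h (log2 fold change -0.41 ± 0.09 SE, adjusted p = 0.00325), the largest fall of the 9 genes at that time. It kept this call without any single library (-0.47 to -0.36) and with the GC-content offset (-0.45, adjusted p = 0.000110). At Nut 1h it was not called (0.06, 95% interval -0.13 to 0.25), but with the GC-content offset it was called lower (-0.43, adjusted p = 0.000179). These counts measure the level of RNA and not the rate of transcription. The authors report that nascent BRD7 transcripts, measured by qRT-PCR, increased during p53 activation, which is a different measure.

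Of the merged exon bases of BRD7, 41.8% overlap exons of ADCY7, an adenylyl cyclase gene on the opposite strand. ADCY7 had 528 to 1635 counts per library against 2665 to 3738 of BRD7. It fell at Nut 1h (-0.83, adjusted p = 5.37e-05; -0.46 with the GC-content offset), and its Nut 10h value was above 0 (0.29, adjusted p = 0.0901; 0.26 with the offset, adjusted p = 0.0395), where that of BRD7 was below 0. The part of shared bases in the BRD7 counts was not tested.

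BRD9 encodes a subunit of the non-canonical BAF form of SWI/SNF. Its gene lies on chromosome 5 from 850406 to 892916 (minus strand). In normalized counts, BRD9 stood at 1897 and 1808 in the vehicle cells, 1874 and 1887 in the Nut 1h cells and 1933 and 1832 in the Nut 10h cells. The libraries of the 3 conditions overlapped. BRD9 was not called at Nut 1h (log2 fold change 0.02, 95% interval -0.17 to 0.22) or Nut 10h (0.02, 95% interval -0.17 to 0.22), and with the GC-content offset it was called higher at Nut 1h (0.31, adjusted p = 0.00139). The ratio of BRD7 to BRD9 counts was 1.90 and 1.86 in the vehicle replicates, 1.93 and 1.92 in those of Nut 1h and 1.33 and 1.45 in those of Nut 10h. It was lower in the Nut 10h libraries than in all others, by -0.43 ± 0.06 (SE) on the log2 scale against Nut 0h. This change was -0.44 under the GC-content offset, but there it was -0.74 already at Nut 1h, and the ratio was higher at Nut 10h than at Nut 1h (0.30).

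**Figure D3:**
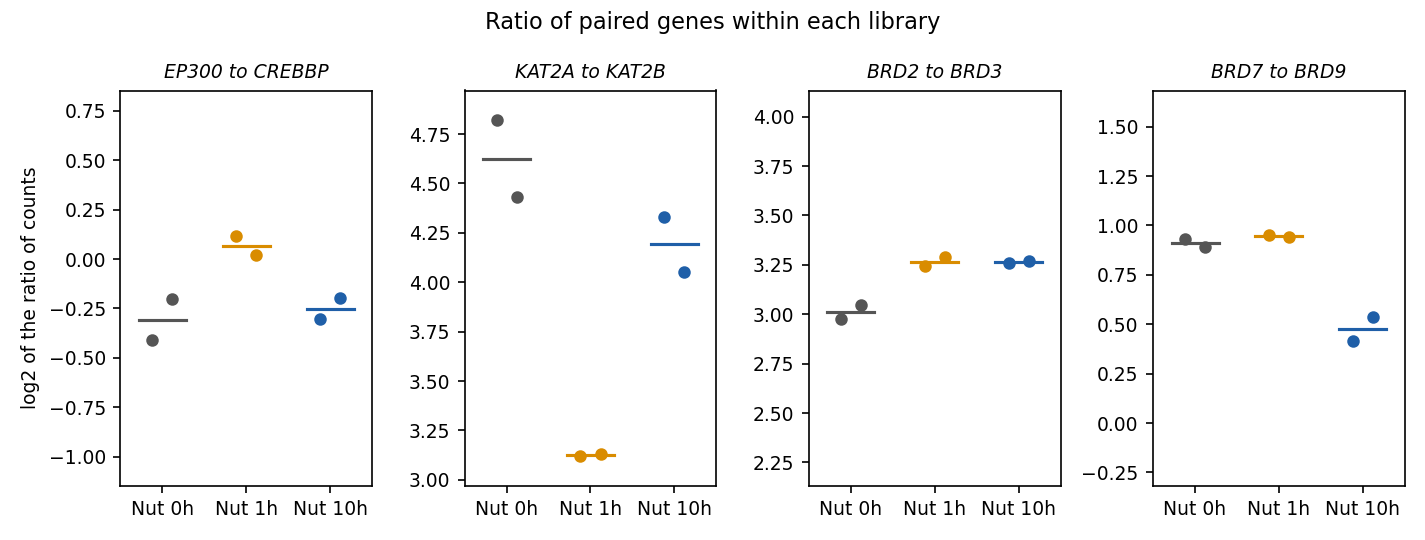
Log2 of the ratio of counts of paired genes within each library (vertical axes, each panel spanning the same range) in Nut 0h, Nut 1h and Nut 10h, with 1 point per library and a line at the mean of the 2 replicates. The KAT2A to KAT2B ratio drops from a mean of 4.63 to 3.13 at Nut 1h, and the BRD7 to BRD9 ratio from 0.91 to 0.48 at Nut 10h.

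After 10 h of Nutlin-3a, 2 of the 9 genes were called as fitted with edgeR, BRD7 and BRD3, both lower. None was called higher in that fit. KAT2B, above 0, and KAT5, below 0, had unadjusted p-values of 0.0185 and 0.0150. In this comparison 29.0% of all tested genes were called, 14.1% higher and 14.9% lower, so 2 of 9 (22.2%) is close to the background. DESeq2 also called 2 of the 9 lower and none higher. With upper-quartile normalization KAT2B was called higher (0.44, adjusted p = 0.0427) and BRD3 was no longer called (-0.24, adjusted p = 0.0668). KAT5 was called lower as well with RLE size factors (adjusted p = 0.0494), with no low-count filter (adjusted p = 0.0259) and with the transcript-length offset (adjusted p = 0.0424). A replicate block added KAT5 (lower) and KAT2B (higher), so that 4 of the 9 were called. The replicate numbers did not pair the samples across all conditions. The count was 1, BRD7, without Nut 0h replicate 1, without either Nut 1h library or without Nut 10h replicate 2. The groups did not overlap for 5 of the 9 genes, beside 61.4% of all tested genes. The median log2 fold change of the 9 genes was -0.03. The Nut 1h and Nut 10h comparisons share the Nut 0h libraries, so that a deviation of those libraries enters both.

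**Figure D4:**
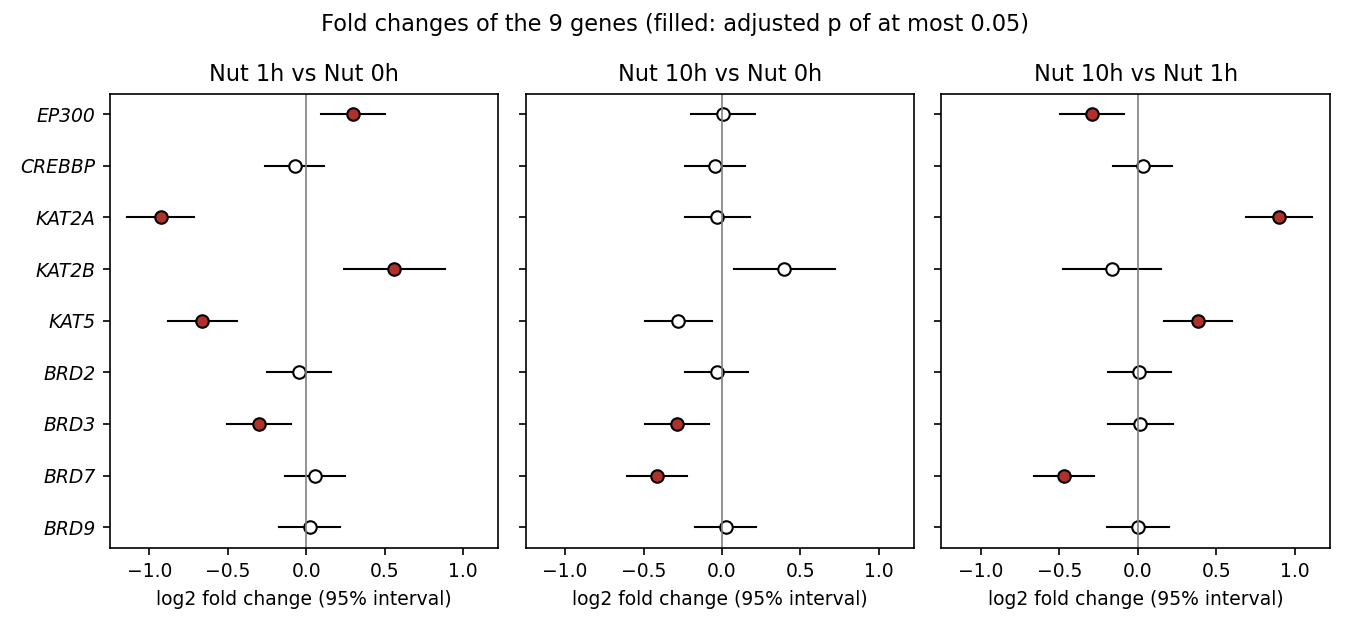
Log2 fold changes (horizontal axes) of the 9 genes in the 3 comparisons, with 95% intervals as lines and filled points where the adjusted p was at most 0.05. KAT2A and KAT5 lie below 0 at Nut 1h and above 0 between Nut 1h and Nut 10h, while BRD7 lies below 0 in both comparisons of Nut 10h.

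Between Nut 1h and Nut 10h, 4 of the 9 genes were called. KAT2A (log2 fold change 0.90 ± 0.10 SE, adjusted p = 2.12e-06) and KAT5 (0.38 ± 0.10 SE, adjusted p = 0.00412) were higher at Nut 10h, and EP300 (-0.29 ± 0.09 SE, adjusted p = 0.0141) and BRD7 (-0.47 ± 0.09 SE, adjusted p = 0.000346) were lower. In this comparison 67.9% of all tested genes were called, 34.2% higher and 33.7% lower, beside 44.4% of the 9 genes. The EP300 call was lost without any 1 of the Nut 1h and Nut 10h libraries (adjusted p = 0.0524 to 0.131). With the GC-content offset KAT2A (0.06, adjusted p = 0.459) and BRD7 (-0.03, adjusted p = 0.787) were no longer called, and KAT5 changed sign (-0.30, adjusted p = 0.00285). With the transcript-length offset EP300 (-0.07, adjusted p = 0.486) and KAT5 (0.16, adjusted p = 0.150) were no longer called, and CREBBP was called higher (0.31, adjusted p = 0.0145).

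The calls among the 9 genes were redistributed by the GC-content offset. At Nut 1h, EP300, CREBBP and BRD9 were called higher and BRD7 lower, 4 of 9, while 45.3% of all tested genes were called, 20.3% higher and 25.0% lower. EP300 was the only gene called in the same direction with and without the offset at Nut 1h. At Nut 10h, KAT5, BRD3 and BRD7 were called lower and KAT2B higher, 4 of 9, beside 39.3% of all tested genes, 16.7% higher and 22.6% lower. Between Nut 1h and Nut 10h, KAT2B was called higher and EP300, CREBBP, KAT5, BRD2, BRD3 and BRD9 lower, 7 of 9, beside 57.8% of all tested genes, 28.8% higher and 28.9% lower. Over the 9 genes the correlation of GC content with the fold change was -0.84 for Nut 1h and -0.26 for Nut 10h, a description over genes of the same libraries.

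**Figure D5:**
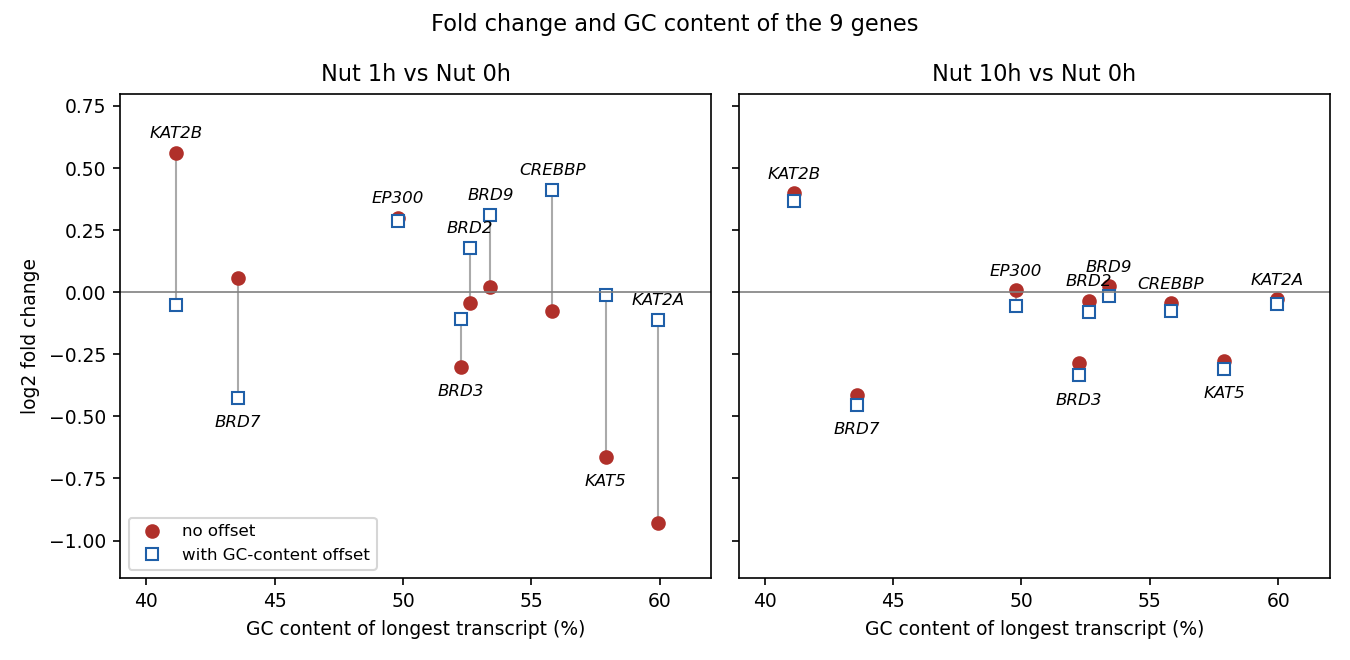
Log2 fold change (vertical axis) against the GC content of the longest transcript (horizontal axis, percent) for the 9 genes at Nut 1h and Nut 10h, as fitted (filled circles) and with the GC-content offset (open squares), joined by lines. At Nut 1h KAT2A moves from -0.93 to -0.11 and KAT2B from 0.56 to -0.05, whereas at Nut 10h no gene moves by more than 0.07.

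The genes whose levels over the 6 libraries were most like those of the members were found among 11575 genes with at least 100 normalized counts on average, by the root mean square difference of centred log2 normalized counts. The nearest genes were SRPK2 for EP300 (0.03), AARS for CREBBP (0.02), ASB6 for KAT2A (0.02), HDHD2 for KAT2B (0.04), ZNF346 for KAT5 (0.03), MRPS21 for BRD2 (0.03), SLC39A1 for BRD3 (0.03), MCUR1 for BRD7 (0.03) and PAX8-AS1 for BRD9 (0.02). Such patterns were common, since between 126 genes (KAT2B) and 579 genes (CREBBP) lay within 0.1 of each member. None of the members had another member as its nearest gene. The closest members to each other were CREBBP and BRD9 (0.04), with 24 genes nearer to CREBBP and 23 nearer to BRD9. KAT2A had KAT5 as its nearest member (0.22), with 1991 other genes nearer.

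Of 25 subunits of SAGA and ATAC, the partners of KAT2A and KAT2B, 8 were called higher (32.0%) and 8 lower (32.0%) at Nut 1h, close to the 34.5% and 32.3% of all tested genes. Under the GC-content offset 5 were higher and 13 lower, beside 20.3% and 25.0% of all tested genes. ZZZ3, an ATAC subunit, rose most (log2 fold change 0.84, adjusted p = 8.23e-06), but with the offset its value was 0.05 (adjusted p = 0.601). TAF10, which SAGA shares with TFIID, fell most (-1.50, adjusted p = 2.70e-07), and with the offset by -1.46 (adjusted p = 6.63e-09). At Nut 10h, 1 was called higher, SUPT7L (0.36, adjusted p = 0.0137), and 5 lower, with WDR5 the lowest (-0.40, adjusted p = 0.00651). The median of the list was -0.10, and 14.1% of all tested genes were higher and 14.9% lower. With the offset 1 was higher and 9 lower at Nut 10h, beside 16.7% and 22.6% of all tested genes. The 16 calls at Nut 1h were 10 without Nut 1h replicate 1, and the 6 calls at Nut 10h were 2 without Nut 0h replicate 1 or either Nut 1h library, 3 without Nut 10h replicate 1 and 10 with the offset.

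Of 17 NuA4 subunits, the partners of KAT5, 9 were called higher (52.9%) at Nut 1h and 4 lower (23.5%), against 34.5% and 32.3% of all tested genes, while KAT5 itself fell as fitted. Under the GC-content offset the counts were 5 higher and 4 lower, beside 20.3% and 25.0% of all tested genes, and they were in part of other genes. EP400 (0.29, adjusted p = 0.00575) and TRRAP (0.24, adjusted p = 0.0291), not called as fitted, were then called higher. YEATS4 turned from higher (0.42, adjusted p = 0.00227) to lower (-0.29, adjusted p = 0.0142), and these 3 genes are named at Nut 1h after their values were seen. ING3, a reader of methylated histone H3, rose most (0.95, adjusted p = 3.39e-06; 0.14 with the offset). RUVBL2, an ATPase of the complex, fell most (-0.61, adjusted p = 0.000718), yet with the offset it was higher (0.34, adjusted p = 0.00253). At Nut 10h, 1 subunit was called higher, MBTD1 (0.38, adjusted p = 0.0143), and 5 lower, among them YEATS4 (-0.72, adjusted p = 0.000147), with a median of -0.16; the 5 lower calls are 29.4% of the list, beside 14.9% of all tested genes. The lower calls at Nut 10h numbered 8 with the offset, where 22.6% of all tested genes were lower.

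The list of 25 SWI/SNF subunits was not limited to the forms that hold BRD7 or BRD9. Of these subunits, 8 were called higher and 11 lower at Nut 1h, and 4 and 7 with the GC-content offset. The shares over all tested genes were 34.5% and 32.3%, and 20.3% and 25.0% with the offset. PHF10, a PBAF subunit, rose most (0.98, adjusted p = 3.57e-06; 0.17 with the offset), and BCL7C fell most (-1.94, adjusted p = 7.15e-08; -0.72 with the offset, adjusted p = 6.40e-07). At Nut 10h, 10 of the 25 (40.0%) were called lower and 2 higher, beside 14.9% lower and 14.1% higher among all tested genes, with a median of -0.17 beside 0.00017. Among called subunits whose normalized counts averaged 100 or more, DPF1 was the lowest (-0.57, adjusted p = 0.00591) and BICRAL the highest (0.32, adjusted p = 0.0396). DPF3, the other subunit called higher, had 16.6 normalized counts on average at Nut 0h and 36.9 at Nut 10h (1.14, adjusted p = 0.0233), and it is named here after its values were seen. The count of lower calls was 13 with the offset (22.6% of all tested genes were then lower), and 6 without Nut 0h replicate 1 or either Nut 1h library and 7 without Nut 10h replicate 2, with none higher in these.

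Of 15 other acetyltransferase genes, not all of them known mainly for acting on lysines, 10 were called higher (66.7%) and 1 lower at Nut 1h. The median was 0.52, and 34.5% of all tested genes were higher and 32.3% lower. Under the GC-content offset 2 were higher and 1 lower, with a median of 0.11, beside 20.3% and 25.0% of all tested genes. TAF1, the largest subunit of TFIID, rose most (1.06, adjusted p = 1.55e-06; 0.69 with the offset, adjusted p = 1.61e-06), and KAT8 fell (-0.47, adjusted p = 0.00146; -0.18 with the offset). At Nut 10h 2 were called lower as fitted with edgeR (13.3%, beside 14.9% of all tested genes) and none higher in that fit. HAT1, which acetylates newly made histone H4, was the lowest (-0.998, adjusted p = 1.53e-06). At an unadjusted p under 0.05, 2 were higher and 3 lower, and DESeq2 called none higher. With the offset 2 were called higher and 6 lower at Nut 10h, beside 16.7% and 22.6% of all tested genes. Only 1 gene was called without Nut 0h replicate 1 or either Nut 1h library, 4 without Nut 10h replicate 1 and 8 with the offset.

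Of the other bromodomain genes, 20 of 30 tested were called higher (66.7%) at Nut 1h and 3 lower (10.0%), and 14 and 4 with the offset. Over all tested genes these shares were 34.5% and 32.3%, and 20.3% and 25.0% with the offset. Some genes are shared between these lists, such as TAF1 and BRD8 here, and their calls are counted in each list. BRWD3 rose most (1.13, adjusted p = 1.08e-05; 0.35 with the offset) and TRIM28 fell most (-0.90, adjusted p = 1.00e-05), although with the offset TRIM28 was higher (0.32, adjusted p = 0.00318). At Nut 10h, 3 were called higher and 8 lower (26.7%, beside 14.9% of all tested genes). ATAD2, a bromodomain ATPase tied to DNA replication, fell to 0.28 of its Nut 0h level (-1.86, adjusted p = 8.46e-09), further than any of the 9 genes, and SP140L rose (0.66, adjusted p = 0.000291). The 11 calls at Nut 10h were 5 without Nut 0h replicate 1.

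The 26 genes of the HDAC and SIRT families and of corepressors were listed by family, not by the substrate of the enzyme. Of these, 14 were called lower (53.8%) and 6 higher (23.1%) at Nut 1h, with a median of -0.38. Among all tested genes 32.3% were lower and 34.5% higher. Under the offset 9 were lower and 5 higher, with a median of -0.09, beside 25.0% and 20.3%. HDAC10 fell most (-1.86, adjusted p = 6.78e-07; -0.36 with the offset, adjusted p = 0.0893) and SIRT1 rose most (0.82, adjusted p = 8.21e-06; 0.18 with the offset). At Nut 10h, 4 were called higher, led by HDAC4 (0.44, adjusted p = 0.00563), and 2 lower, led by SIN3A (-0.46, adjusted p = 0.00338), beside 14.1% and 14.9% of all tested genes. The offset gave 4 higher and 4 lower at Nut 10h, beside 16.7% and 22.6% of all tested genes. The 6 calls as fitted were 3 without Nut 0h replicate 2 or either Nut 1h library.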

How the data were processed

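RNA-seq counts of 6 HCT116 libraries (Nut 0h, Nut 1h and Nut 10h, 2 biological replicates each, as labelled) were used. The authors trimmed reads with Trim Galore 0.6.6, aligned them to GRCh37 with STAR 2.7.0f and counted them per gene with featureCounts (Subread 2.0.0), and deposited the raw counts. Strand setting and treatment of multimapping reads are not given in the sources used here. The authors' table of comparisons holds fold changes and p-values from their DESeq2 run and served only to pair gene symbols with identifiers. Data types other than RNA-seq were left out.

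The filter filterByExpr retained 16565 of 57905 genes, and their TMM-normalized counts entered the two-sided quasi-likelihood test of edgeR 4.0.16 under R 4.3.3 and limma 3.58.1, with condition as the only term, 3 residual degrees of freedom, and Benjamini-Hochberg adjustment over all tested genes. Genes were called at an adjusted p of at most 0.05. Standard errors are the absolute log2 fold change over the root of F. Totals of 26068076 to 35473485 counts set the precision, and p-values measure the spread between replicates of 1 line. Lengths, GC contents and overlaps came from GENCODE release 44 lifted to GRCh37 (a GC content for 97.4% of tested genes), and promoters from RefSeq (GRCh38.p14). The GC-content and length offsets are loess curves (span 0.4) per library. The genes and lists were chosen with earlier results of these data known. Besides the 9 genes and CDKN1A and MDM2, the text names, per list and comparison with Nut 0h, the called genes with the largest rise and fall (mean normalized count at least 100), and the 1 gene nearest to each member in pattern (pseudocount 0.5). The alternatives were other normalizations, filters, DESeq2 1.42.0, the offsets, a replicate block, stricter thresholds and each library left out. The scripts were tested on simulated data.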

Additional observations from a re-analysis of the deposited data

Results flagged for a closer look

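For 4 of the 9 genes the effect of Nutlin-3a differed between 1 h and 10 h, as tested by the comparison of Nut 10h with Nut 1h, which is the difference of the 2 effects because both are measured against the same Nut 0h libraries. The effect at Nut 10h minus that at Nut 1h, on the log2 scale, was 0.90 for KAT2A, 0.38 for KAT5, -0.29 for EP300 and -0.47 for BRD7. KAT2A and KAT5 were low at Nut 1h, and KAT2A had a Nut 10h level that overlapped Nut 0h, whereas BRD7 was low only in the Nut 10h libraries as fitted. With the GC-content offset the difference was 0.06 for KAT2A (adjusted p = 0.459), -0.30 for KAT5 (adjusted p = 0.00285), -0.34 for EP300 (adjusted p = 0.000481) and -0.03 for BRD7 (adjusted p = 0.787). With the transcript-length offset it was 0.76 for KAT2A (adjusted p = 4.30e-06), 0.16 for KAT5 (adjusted p = 0.150), -0.07 for EP300 (adjusted p = 0.486) and -0.41 for BRD7 (adjusted p = 0.000708). In the comparison of Nut 10h with Nut 1h 67.9% of all tested genes were called, so these 4 genes share a property of most genes.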

How the results depend on the processing

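With 2 replicates per condition, changes below about 0.2 on the log2 scale were within the 95% intervals of these genes, wider still for KAT2B, and the GC trend at Nut 1h touched most of their values. The cause of the shifts below was not tested. Of the members called against Nut 0h, KAT2A and KAT5 at Nut 1h and BRD7 at Nut 10h kept their call and direction with each library left out, under each normalization and filter, and with DESeq2. BRD7 at Nut 10h also kept them with the GC-content offset, which KAT2A and KAT5 at Nut 1h did not.

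Members called at Nut 1h numbered 5, 3 at an adjusted p of at most 0.01, 0 with a log2 fold change of at least 1 in size also required, and 3 to 5 with 1 library left out. At Nut 10h the 2 members called became 4 with the GC-content offset, 1 with only the 2 conditions in the fit, 1 at an adjusted p of at most 0.01, 0 with the minimum fold change, and 1 to 3 with 1 library left out. Between Nut 1h and Nut 10h the 4 members called became 7 with the GC-content offset and 0 with the minimum fold change. Over all genes, the minimum fold change left 3974, 1135 and 4746 called at Nut 1h, at Nut 10h and between them, and an adjusted p of at most 0.01 left 2980 at Nut 10h.

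The replicate numbers did not pair the samples across all conditions. Correlations of replicate differences were -0.309 for Nut 0h and Nut 1h, 0.446 for Nut 0h and Nut 10h and -0.279 for Nut 1h and Nut 10h. With a replicate block, 4 members were called at Nut 10h, adding KAT5 and KAT2B. The GC-content offset with the block called 4 members at Nut 10h, 7 between Nut 1h and Nut 10h, and 7251 genes at Nut 1h. A block with the Nut 1h numbers crossed, chosen after seeing the data, called 4 members and 7631 genes at Nut 10h.

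Signs changed with the GC-content offset (and with it and the block) for CREBBP (0.41 and 0.41), KAT2B (-0.053 and -0.048), BRD2 (0.18 and 0.18) and BRD7 (-0.43 and -0.43) at Nut 1h, for EP300 (-0.057 and -0.056) and BRD9 (-0.015 and -0.015) at Nut 10h, and between Nut 1h and Nut 10h for CREBBP (-0.49 and -0.49), KAT2B (0.42 and 0.42), KAT5 (-0.30 and -0.30), BRD2 (-0.26 and -0.26), BRD3 (-0.23 and -0.23) and BRD9 (-0.33 and -0.33). The log2 ratio changes that turned with the offset were EP300 to CREBBP (-0.12 at Nut 1h, 0.14 between Nut 1h and Nut 10h), KAT2A to KAT2B (-0.36 between them) and BRD7 to BRD9 (-0.74 at Nut 1h, 0.30 between them). With the transcript-length offset EP300 fitted -0.019 (Nut 1h) and -0.090 (Nut 10h), BRD7 -0.039 (Nut 1h) and BRD9 -0.018 (Nut 1h).

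The other sign changes were of values not called under the setting in which they turned. They were EP300 at Nut 10h with RLE size factors (-0.0025), DESeq2 (-0.0092) and no filter (-0.036), CREBBP (0.0024), KAT2A (0.018) and BRD2 (0.012) at Nut 10h with upper-quartile normalization, and, with library totals alone, BRD2 at Nut 1h (0.011) and CREBBP (-0.0084), BRD2 (-0.026), BRD3 (-0.023) and BRD9 (-0.037) between Nut 1h and Nut 10h. BRD9 at Nut 1h was -0.0075 with RLE size factors, -0.0037 without mitochondrial genes, -0.022 with no filter, -0.012 with only the 2 conditions and -0.027 with DESeq2. With no filter BRD9 was -0.022 at Nut 10h and -0.00023 between Nut 1h and Nut 10h, and -0.0066 there with 1 CPM in 2 libraries. With 1 library left out, BRD2 (-0.14 to 0.043), BRD7 (-0.0070 to 0.10) and BRD9 (-0.024 to 0.049) changed sign at Nut 1h, EP300 (-0.080 to 0.096), CREBBP (-0.089 to 0.016), KAT2A (-0.10 to 0.057) and BRD9 (-0.016 to 0.076) at Nut 10h, and BRD2 (-0.080 to 0.10), BRD3 (-0.055 to 0.082) and BRD9 (-0.0091 to 0.091) between them.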
